A study of Mus musculus with 8 samples.

Results

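Kit, Kitl, Cxcl12 and Cxcr4 encode the ligand-receptor pairs that guide and sustain primordial germ cells, and their transcripts were followed in mouse gonads with and without the histone demethylase gene Kdm6b. The 4 genes were matched by gene name among 48440 genes in the deposited tables, and all 4 were found. The animals were mouse embryos of day 11.5, and wild type and Kdm6b-null gonads of each sex made up 4 groups, with 2 libraries each and 2 pairs of gonads pooled per library. The growth protocol in the labels counts 4 samples where 8 libraries are listed, so how the pools relate to the libraries is not fully clear. No treatment was applied, and both null groups are labelled with a Kdm6b knockout genotype, whose allele and deleted part were not described in the labels. The labels of XX libraries name pre-granulosa cells and those of XY libraries pre-Sertoli cells, but they describe gonad tissue and no sorting. The somatic markers Wt1 and Gata4, the germ cell marker Pou5f1, the endothelial marker Cdh5 and the globin gene Hbb-y were detected in every library, so the values are those of mixed tissue.

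KIT is a receptor tyrosine kinase on primordial germ cells, and its ligand, the product of Kitl, is made by the somatic cells around them in a membrane-bound and a shed form. CXCL12 is a chemokine made along the route and in the gonadal ridge, and CXCR4 is the G protein-coupled receptor with which germ cells sense it. ACKR3, a second receptor for CXCL12, takes the chemokine up and degrades it rather than signalling through G proteins. None of these genes is restricted to the germ line or its niche: KIT also marks mast cells, melanoblasts and blood progenitors, and CXCL12 and CXCR4 also act in vessels.

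The genes lie on 4 chromosomes of the GRCm38 build. Kit (ENSMUSG00000005672.12) occupies chromosome 5 from 75574916 to 75656722, Kitl (ENSMUSG00000019966.17) chromosome 10 from 100015630 to 100100413, and Cxcl12 (ENSMUSG00000061353.11) chromosome 6 from 117168535 to 117181367, all on the plus strand. Cxcr4 (ENSMUSG00000045382.6) occupies chromosome 1 from 128588199 to 128592293 on the minus strand. No other gene of the deposited table overlaps any of the 4.

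The promoters of the 4 genes share a feature that did not enter their choice: each window of 300 bases, from 250 before to 50 after the RefSeq start (GRCm38.p6), holds the GC box GGGCGG, the core of an SP1 site, on one strand or the other. Kit has 1 match, Kitl 3, Cxcl12 5 and Cxcr4 3, and 35.9% of 27025 promoters hold at least 1. The windows hold 20, 28, 20 and 20 CpG dinucleotides in that order, against a median of 7 over all promoters. Of all promoters, 73.2% hold fewer CpG than Kit, Cxcl12 or Cxcr4, and 86% fewer than Kitl. GC content was 59.3 to 69.0% in the 4 windows, against a median of 52.7%, and the GC box was not counted among promoters of like GC content. TATAAA occurs in Kitl (1 match) and Cxcr4 (2 matches that overlap on opposite strands), and in 14.2% of all promoters. Neither ACGTG, a form of the hypoxia response core (19.7% of promoters), nor AAGGTCA, an NR5A1 half-site (4.66%), occurs in the 4 windows on either strand. GCGTG, another form of that core, was not counted over all promoters, and it occurs upstream of the start in Kit and Cxcr4. The stretch upstream of both the RefSeq start and the deposited gene start has only 59 bases in Kitl and is not shown. The stretches of Kit, Cxcl12 and Cxcr4 are shown 5′ to 3′ on the gene's strand, with GC box matches in capitals. They span chr5:75574737-75574915, chr6:117168285-117168534 and chr1:128592300-128592549.
Kit: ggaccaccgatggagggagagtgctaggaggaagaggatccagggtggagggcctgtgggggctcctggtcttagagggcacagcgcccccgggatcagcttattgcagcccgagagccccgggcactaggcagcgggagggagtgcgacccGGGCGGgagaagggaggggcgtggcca
Cxcl12: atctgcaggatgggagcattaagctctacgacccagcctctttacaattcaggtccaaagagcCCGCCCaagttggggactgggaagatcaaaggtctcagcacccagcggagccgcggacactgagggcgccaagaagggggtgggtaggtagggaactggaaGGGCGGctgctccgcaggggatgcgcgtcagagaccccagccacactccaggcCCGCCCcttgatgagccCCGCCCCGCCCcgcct
Cxcr4: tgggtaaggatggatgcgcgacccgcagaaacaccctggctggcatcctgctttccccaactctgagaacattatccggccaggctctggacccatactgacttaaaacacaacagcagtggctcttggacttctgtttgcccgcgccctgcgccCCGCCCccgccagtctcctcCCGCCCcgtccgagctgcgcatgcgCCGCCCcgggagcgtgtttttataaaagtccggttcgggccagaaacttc

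Each library held 19107103 to 19828638 counts on genes. Kdm6b, the targeted gene, measured 3399 and 3181 normalized counts across wild type XY pools against 1238 and 1037 in XY null, and 2218 and 2796 in XX wild type against 1249 and 1125 in XX null, so every null library lay below every wild type library of its sex. The 2 XX wild type libraries stood apart from each other, with Pearson's r = 0.963 across genes on the log2 scale, while the 3 other pairs had 0.980 to 0.985. They differed in several germ cell genes, though not in all and not always in the same direction. Nanos3 had 46.57 and 46.53 normalized counts in XX wild type replicates 1 and 2, and Sall4 had 159.1 and 442.0. Pou5f1, a pluripotency factor of germ cells, had 216.3 normalized counts in XX wild type replicate 1 and 25.29 in replicate 2, Ddx4, a germ cell RNA helicase, had 263.9 and 11.13, and Dazl, a germ cell translation regulator, had 467.6 and 19.22. Normalized counts are featureCounts counts divided by 1 size factor per library. XX and XY libraries were normalized separately by the authors, so levels of the sexes are set side by side without a test. The labels do not say that replicate pools came from separate litters, and the p-values measure the spread between these pools.

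Per kilobase of exon, Cxcl12 was by far the most abundant of the 4 transcripts. Its mean was 1835 normalized counts per kilobase in XY wild type and 1572 in XX wild type. Kitl followed with 454.1 and 323.9, and the receptors came last, Kit with 172.2 and 132.9 and Cxcr4 with 146.6 and 135.5. The ranges of Kit and Cxcr4 overlapped in both wild type groups (148.3 and 196.0 against 169.1 and 124.1 in XY, 120.1 and 145.8 against 137.9 and 133.2 in XX), so these neighbours were not separated beyond their spread. In the null groups Kit stood above Cxcr4 in every library, at 188.3 to 283.1 against 87.1 to 127.9 per kilobase. Cxcl12 exceeded 99.5% of the 16943 genes with a mean of at least 10 normalized counts, and Cxcr4 exceeded 40.6%. Cxcr4 rests on 153 to 309 counts per library, which gives a counting error of 5.69 to 8.08% for a single library, and the others on 1103 counts or more.

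**Figure D1:**
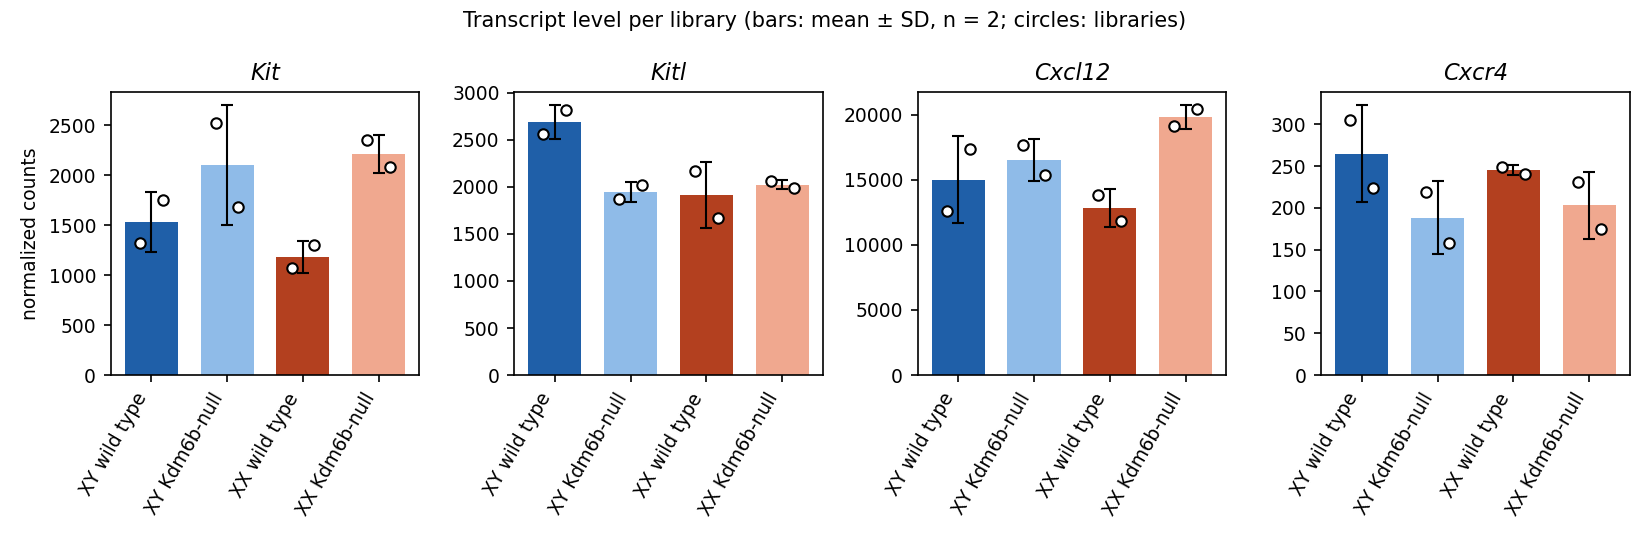
Normalized counts (vertical axis, from 0) of the 4 genes in the 4 groups; bars are means with SD (n = 2) and circles are single libraries, with XY and XX normalized separately. Kit and Cxcl12 lie higher in both XX null libraries than in either XX wild type library, Kitl lies lower in both XY null libraries, and Cxcr4 is lower in the null libraries of both sexes, narrowly in each.

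The comparison of null with wild type asks how loss of Kdm6b changes these guidance genes in the gonad of each sex. Kit was higher without Kdm6b in XX gonads, Cxcl12 was higher there too, Kitl was lower in XY gonads, and Cxcr4 was lower in the null of both sexes. By limma, which was run on log2(normalized count + 1) over all genes, none of these differences passed an adjusted p of 0.05. It called 0 of 16821 genes in XY and 0 of 17028 in XX (0% of each), so the share of members called was the same as that of all genes. Kdm6b itself was not called by limma, at -1.54 in XY (limma adjusted p = 0.12) and -1.07 in XX (limma adjusted p = 0.19). It was called in the authors' deposited tables for both sexes (DESeq2 adjusted p of 8.2e-25 in XY and 7.1e-07 in XX). An absent limma call is therefore no evidence that a gene was unchanged. The authors' deposited DESeq2 tables called Kitl in XY (0.402% of 17890 genes called) and Kit and Cxcl12 in XX (2.77% of 14704 called). Where groups are said below not to overlap, the share of all genes that do the same was not counted. With 2 libraries against 2, an exact permutation p cannot fall under 0.333 for a single gene. In gonads sequenced whole, fewer cells of a type and less RNA per cell cannot be told apart.

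Kit, the receptor, measured 1070 and 1299 normalized counts across wild type XX pools, against 2347 and 2080 across null XX pools. The groups did not overlap, and the null mean of 2213 ± 189 (SD, n = 2) was 1.87 times the wild type mean of 1184 ± 162 (SD, n = 2). The limma log2 fold change was 0.91 (SE 0.13, 95% interval 0.57 to 1.24, limma adjusted p = 0.22), which ranked 63 of 17028 genes by p. Kit rose in the authors' deposited table for XX, where its log2 fold change was 0.90 (DESeq2 adjusted p = 3.6e-05). With either XX wild type library left out, and the lone library assumed to vary like the null libraries, limma called Kit (log2 fold change 0.77 without replicate 1, adjusted p = 0.012, and 1.05 without replicate 2, adjusted p = 0.0028), while all genes called went from 0 to 621 and 3550. In XY gonads Kit measured 1322 and 1747 in the wild type pools, against 2522 and 1678 normalized counts in the null pools. Those groups overlapped, since null replicate 2 lay below wild type replicate 2 (log2 fold change 0.44, SE 0.23, limma adjusted p = 0.9987). The XY value ranged from 0.14 without null replicate 1 to 0.73 without null replicate 2.

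Kitl, the ligand of KIT, measured 2557 and 2811 normalized counts across wild type XY pools, against 1872 and 2021 across null XY pools. Both null libraries lay below both wild type libraries, and the null mean of 1946 ± 105 (SD, n = 2) was 72.5% of the wild type mean of 2684 ± 180 (SD, n = 2). The limma log2 fold change was -0.46 (SE 0.09, 95% interval -0.68 to -0.25, limma adjusted p = 0.49), which ranked 72 of 16821 genes by p. Kitl fell in the authors' deposited table for XY, where its log2 fold change was -0.46 (DESeq2 adjusted p = 0.039). In XX gonads Kitl measured 2163 and 1667 in the wild type pools, against 2059 and 1988 normalized counts in the null pools, so the null libraries lay inside the wild type range (log2 fold change 0.09, SE 0.14, limma adjusted p = 0.80). With wild type replicate 2 left out that value was -0.10, and with replicate 1 left out it was 0.28.

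Cxcl12, the chemokine, measured 13870 and 11830 normalized counts across wild type XX pools, against 19160 and 20450 across null XX pools. The groups did not overlap, and the means were 12850 ± 1440 and 19800 ± 909 (SD, n = 2 each), a ratio of 1.54. The limma log2 fold change was 0.63 (SE 0.15, 95% interval 0.26 to 0.99, limma adjusted p = 0.26). Cxcl12 rose in the authors' deposited table for XX, where its log2 fold change was 0.62 (DESeq2 adjusted p = 8e-04). With XX wild type replicate 1 left out (0.74), and with replicate 2 left out (0.51), limma called it, each time with adjusted p = 0.012, in the same fits with 621 and 3550 genes called and a spread taken from the null libraries. In XY gonads Cxcl12 measured 12640 and 17370 in the wild type pools, against 17670 and 15350 normalized counts in the null pools. These groups overlapped (log2 fold change 0.15, SE 0.17, limma adjusted p = 0.9987), and the sign turned to -0.08 without XY wild type replicate 1.

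Cxcr4, the signalling receptor of CXCL12, measured 305.7 and 224.3 normalized counts across wild type XY pools, against 219.5 and 157.5 across null XY pools. The groups did not overlap, but wild type replicate 2 and null replicate 1 differed by less than the counting error of a single library (log2 fold change -0.49, SE 0.24, 95% interval -1.08 to 0.10, limma adjusted p = 0.9987). In XX gonads Cxcr4 measured 249.3 and 240.7 in the wild type pools, against 231.2 and 174.8 normalized counts in the null pools, again without overlap but with 240.7 and 231.2 closer than that counting error (log2 fold change -0.28, SE 0.19, limma adjusted p = 0.52). The null averaged 71.1% of wild type in XY and 82.9% in XX. Cxcr4 was called neither by limma nor in the authors' deposited tables (log2 fold changes there -0.49 and -0.27, DESeq2 adjusted p of 0.9999 and 0.80). Without XX null replicate 2 the XX value was -0.08.

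Ackr3, the receptor that degrades CXCL12, is no member but shares its ligand. It measured 1291 and 1030 normalized counts across wild type XX pools, against 849.0 and 855.7 across null XX pools, a log2 fold change of -0.44 (SE 0.14, limma adjusted p = 0.31), so both null libraries lay below both wild type libraries. In XY it had 906.2 and 739.7 in wild type, against 852.5 and 898.6 in the null, and the groups overlapped (0.10, SE 0.12). It was not called in the authors' deposited tables (DESeq2 adjusted p of 0.20 in XX).

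**Figure D2:**
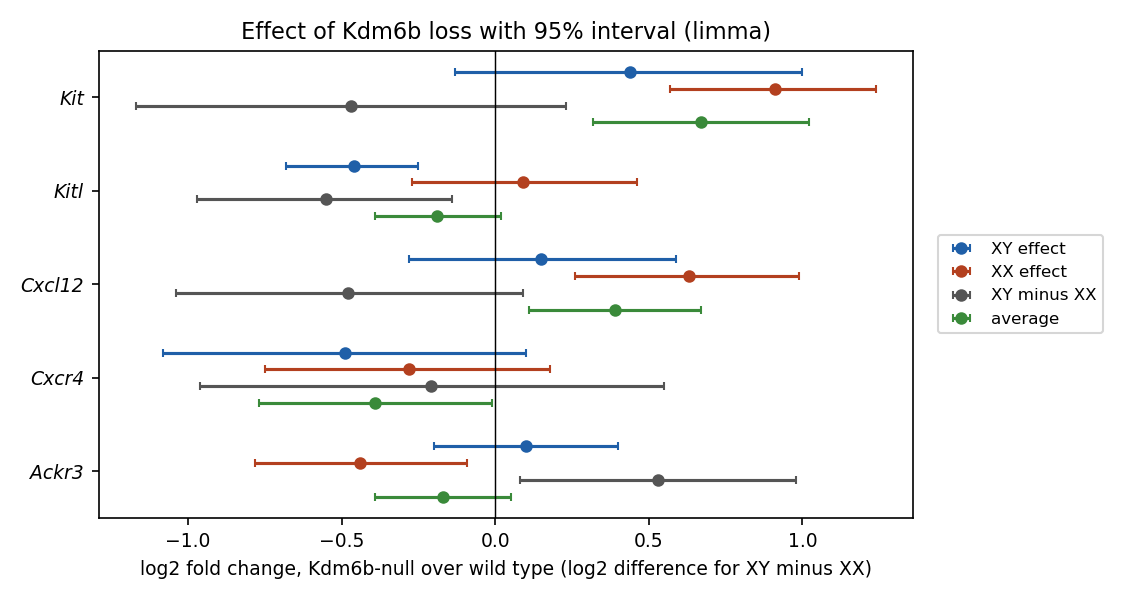
Limma log2 fold changes of null over wild type with 95% intervals (horizontal axis) for the 4 genes and Ackr3, in XY, in XX, as the XY minus XX difference and as the average of both. The XX intervals of Kit (0.57 to 1.24) and Cxcl12 (0.26 to 0.99) and the XY interval of Kitl (-0.68 to -0.25) lie on one side of 0, before adjustment over all genes.

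The difference between the sexes was tested as the XY effect minus the XX effect in 1 fit of the 8 libraries, in which a scale factor between the 2 tables cancels. Kitl had the largest size among the 4 genes, -0.55 (SE 0.18, 95% interval -0.97 to -0.14, limma adjusted p = 0.57), and Kit, Cxcl12 and Cxcr4 had -0.47, -0.48 and -0.21, with limma adjusted p of 0.68, 0.62 and 0.88. Ackr3 went the other way, at 0.53 (SE 0.19, limma adjusted p = 0.58). Limma called 0% of 16943 genes here, so an effect seen in one sex alone is not shown to differ from the other. Averaged over both sexes, Kit had 0.67 (SE 0.15, limma adjusted p = 0.17), Cxcl12 0.39 (SE 0.12, limma adjusted p = 0.24), Cxcr4 -0.39 (SE 0.16, limma adjusted p = 0.33) and Kitl -0.19 (SE 0.09, limma adjusted p = 0.40). None of the 4 was among the 6 genes that limma called there (0.0354% of genes). Left out in turn, XX wild type replicate 2 made both Kit (0.74, adjusted p = 0.046) and Kitl (-0.28, adjusted p = 0.043) pass in the average, while genes called went from 6 to 1306.

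Before adjustment over all genes, an unadjusted limma p under 0.05 was reached by Kitl alone in XY (lower, as were 2.85% of genes, against 2.11% higher) and by Kit and Cxcl12 in XX (higher, as were 9.34% of genes, against 4.65% lower). In the difference it was reached by Kitl (lower, as 5.71% of genes, against 2.70% higher). In the average it was reached by Kit and Cxcl12 (higher, as 9.05% of genes) and by Cxcr4 (lower, as 5.39%).

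The balance of ligand and receptor within a library does not depend on its size factor. The log2 ratio of Kitl to Kit counts was 0.95 and 0.69 in XY wild type against -0.43 and 0.27 in XY null, and 1.01 and 0.36 in XX wild type against -0.19 and -0.07 in XX null. In each sex every null library had less ligand transcript per receptor transcript than every wild type library, with a mean change of -0.90 in XY and -0.81 in XX. The log2 ratio of Cxcl12 to Cxcr4 moved the other way, from 5.37 and 6.27 to 6.32 and 6.60 in XY (0.64) and from 5.79 and 5.61 to 6.37 and 6.86 in XX (0.91). In XX the Kitl to Kit change lay in Kit (limma log2 fold change 0.91), while Kitl moved slightly against it (0.09). In XY both genes moved, with -0.46 for Kitl and 0.44 for Kit. The groups of all 4 comparisons did not overlap, and how often ratios of other genes separate was not counted. An exact two-sided permutation test of 2 libraries against 2 gave p = 0.333 for each, the smallest value that this design allows, and no adjustment over the 8 ratio comparisons can lower it.

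The direction of germ cell genes in XX gonads turned with 1 wild type library, and that of Kit did not. In the list of 25 germ cell markers, 7 of 24 measured were higher and 17 lower in XX null (median log2 fold change -0.30, against 0.00 over all genes), and their summed level was 6055 and 3933 normalized counts in wild type against 4072 and 4041 in the null, with no marker at 0. Without XX wild type replicate 1, 16 of 24 were higher (median 0.63), the same direction as Kit, and without replicate 2 only 2 of 24 were higher (median -1.21). Hells, a chromatin remodeller also made outside the germ line, had 2171 and 2487 normalized counts of those wild type sums and 1996 and 2191 of those null sums. Without it the sums were 3883 and 1445 in wild type against 2076 and 1850 in the null, so both null libraries lay between the 2 wild type libraries. These sums still held Sall4 (159.1 and 442.0 against 532.1 and 408.1) and Lin28a (295.9 and 299.4 against 456.4 and 476.8). Those 2 genes did not follow Pou5f1 across the wild type pair. Pou5f1 was 8.56 times as high in XX wild type replicate 1 as in replicate 2, whereas Kit was 0.824 times as high. Cxcr4 was nearly level between those 2 libraries, with a ratio of 1.04. In XY gonads 21 of 24 germ cell markers were higher in the null (median 0.31), with sums without Hells of 1989 and 2959 in wild type against 3339 and 2731 in the null, which overlap. Relative to the geometric mean of the germ cell markers, Kit differed by 0.02 on the log2 scale between XY null and wild type. With Pou5f1 alone as the reference that value was -0.34, and with Ddx4 and Dppa3, a maternal-effect germ cell gene, it was -0.39. In XX the same ratio was 3.03 and 5.24 in wild type against 5.41 and 5.51 in the null, so its mean change of 1.33 rested on wild type replicate 1 and was 0.23 without it. With Pou5f1 alone as the reference the XX change was 0.61. For Cxcr4 the ratio changed by -0.91 in XY, from 2.54 and 1.26 to 1.01 and 0.97 without overlap, and by 0.14 in XX, where Pou5f1 alone as the reference turned it to -0.58. In the exact permutation test the p of these 4 changes was 1.0, 0.333, 0.333 and 1.0 in the order given.

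**Figure D3:**
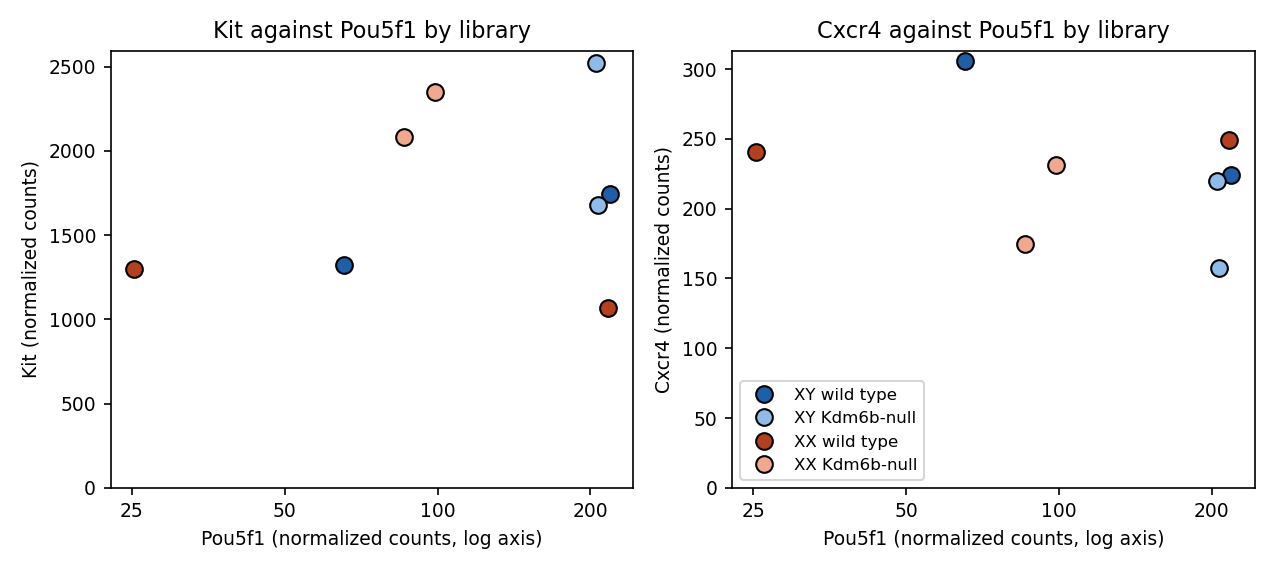
Kit (left) and Cxcr4 (right) against the germ cell marker Pou5f1 in each of the 8 libraries, in normalized counts, with Pou5f1 on a log axis and XY and XX normalized separately. The 2 XX wild type libraries lie far apart in Pou5f1 (216.3 and 25.29) and have the lowest Kit values of the 8 (1070 and 1299).

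Other cell types that carry these genes were followed through their markers. All 16 endothelial markers were higher in XX null gonads (median 0.45), 12 of them with an unadjusted limma p under 0.05 (9.34% of all genes were higher at that p), and their summed level was 17320 and 19800 normalized counts in wild type against 26030 and 26180 in the null, with none at 0. The endothelial cadherin Cdh5 had 1998 and 2486 against 3904 and 3863. These markers thus moved in the same direction as Kit and Cxcl12 in XX, and their part in those differences was not tested. In XY 15 of 16 were lower (median -0.23). In the list of mast cells and blood progenitors, 2 of 5 members measured were higher in XX null and 3 lower (median -0.09). Mcpt4 and Fcer1a were at 0 in all 8 libraries. Hdc, the histamine-forming enzyme, had 320.2 and 56.65 normalized counts in XX wild type against 38.86 and 52.53 in XX null, and 75.11 to 91.72 in XY. Cpa3, a mast cell protease, had 38.81 and 17.2 normalized counts in XX wild type against 5.979 and 6.061 in XX null, with limma adjusted p = 0.29. Of 9 melanoblast and neural crest markers measured, 8 were lower in XX null and 8 in XY null, and Tyr, Tyrp1 and Mlana had at most 4.946 normalized counts. Dct, a pigment enzyme, was the exception in XX (33.96 and 27.31 against 52.81 and 33.34) and had 97.94 and 58.82 against 36.09 and 39.11 in XY. The interstitial list, which stands for mesenchyme, had medians of -0.06 in XY and -0.02 in XX, with 5 of 14 and 6 of 14 members higher.

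Markers of the supporting cells and coelomic epithelium, the somatic neighbours of germ cells, were lower in XY null gonads in 13 of 15 cases (median -0.31). This was the direction of Kitl, while 50% of all genes were higher in XY (median 0). Their summed level was 21610 and 23170 normalized counts in XY wild type against 15870 and 22340 in the null, which overlap, with none at 0. Their part in the Kitl difference was not tested. In XX 9 of 15 were higher (median 0.19). The remaining lists had medians of 0.35 and -0.27 for macrophages, 0.45 and -0.58 for erythroid cells, -0.16 and -0.09 for mast cells and blood progenitors, -0.30 and -0.38 for melanoblasts and neural crest, and 0.01 and 0.38 for mesonephros and duct, in XY and XX in that order.

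To see which transcripts ran most closely with each member, all 13046 genes with a mean of at least 50 normalized counts in each sex were ranked by Pearson's r of their log2 values, centred on the mean of each sex, over the 8 libraries. These libraries share their size factors and the 2 genotypes, so high values are common and are given as a description. Closest to Kit were Fbrs (r = 0.990), Tbc1d25 (0.986), Tmem120b (0.985), Taf1c (0.978), a subunit of an RNA polymerase I factor, and Shisa3 (0.976). Shisa3 had 3238 and 3336 normalized counts in XX wild type against 5539 and 4593 in XX null, the same side as Kit. Kit itself had r = 0.86 with Cxcl12, 0.77 with Cdh5, 0.18 with Pou5f1 and -0.27 with Kitl. Cxcl12 had 0.80 with Cdh5 and 0.53 with Pou5f1. Pecam1, another endothelial marker, had lower values, 0.28 with Kit and 0.44 with Cxcl12.

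Closest to Kitl were the clone-named gene CH25-588N10.2 (r = 0.995), Tradd, an adaptor of TNF receptors (0.974), Lhx9, a homeobox factor of the early gonad (0.972), Shroom2 (0.972) and Cracr2b (0.972). Lhx9 measured 1699 and 2228 normalized counts across wild type XY pools, against 929.6 and 1086 across null XY pools, and 1381 and 918.5 against 1101 and 1167 in XX, which repeats the order of Kitl in the XX wild type pair. Nr5a1, the orphan receptor of somatic gonad cells, had r = 0.92 with Kitl. The somatic marker Wt1 had 0.58 with Kitl, and the endothelial marker Pecam1 had 0.66. Closest to Cxcl12 were Brf1, an RNA polymerase III factor (0.988), Ppp2r5b (0.980), Atp6v0a1, a proton pump subunit (0.980), Creb3l2 (0.980) and P4ha3, a collagen prolyl hydroxylase (0.979). Closest to Cxcr4 were Atm, the DNA damage kinase (0.964), Stim1, a calcium sensor (0.963), Sntb1 (0.962), Wwp1 (0.956) and Rdh11 (0.944). The values of r for Cxcr4 with the other members were -0.44 for Kit, 0.38 for Kitl and -0.54 for Cxcl12.

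**Figure D4:**
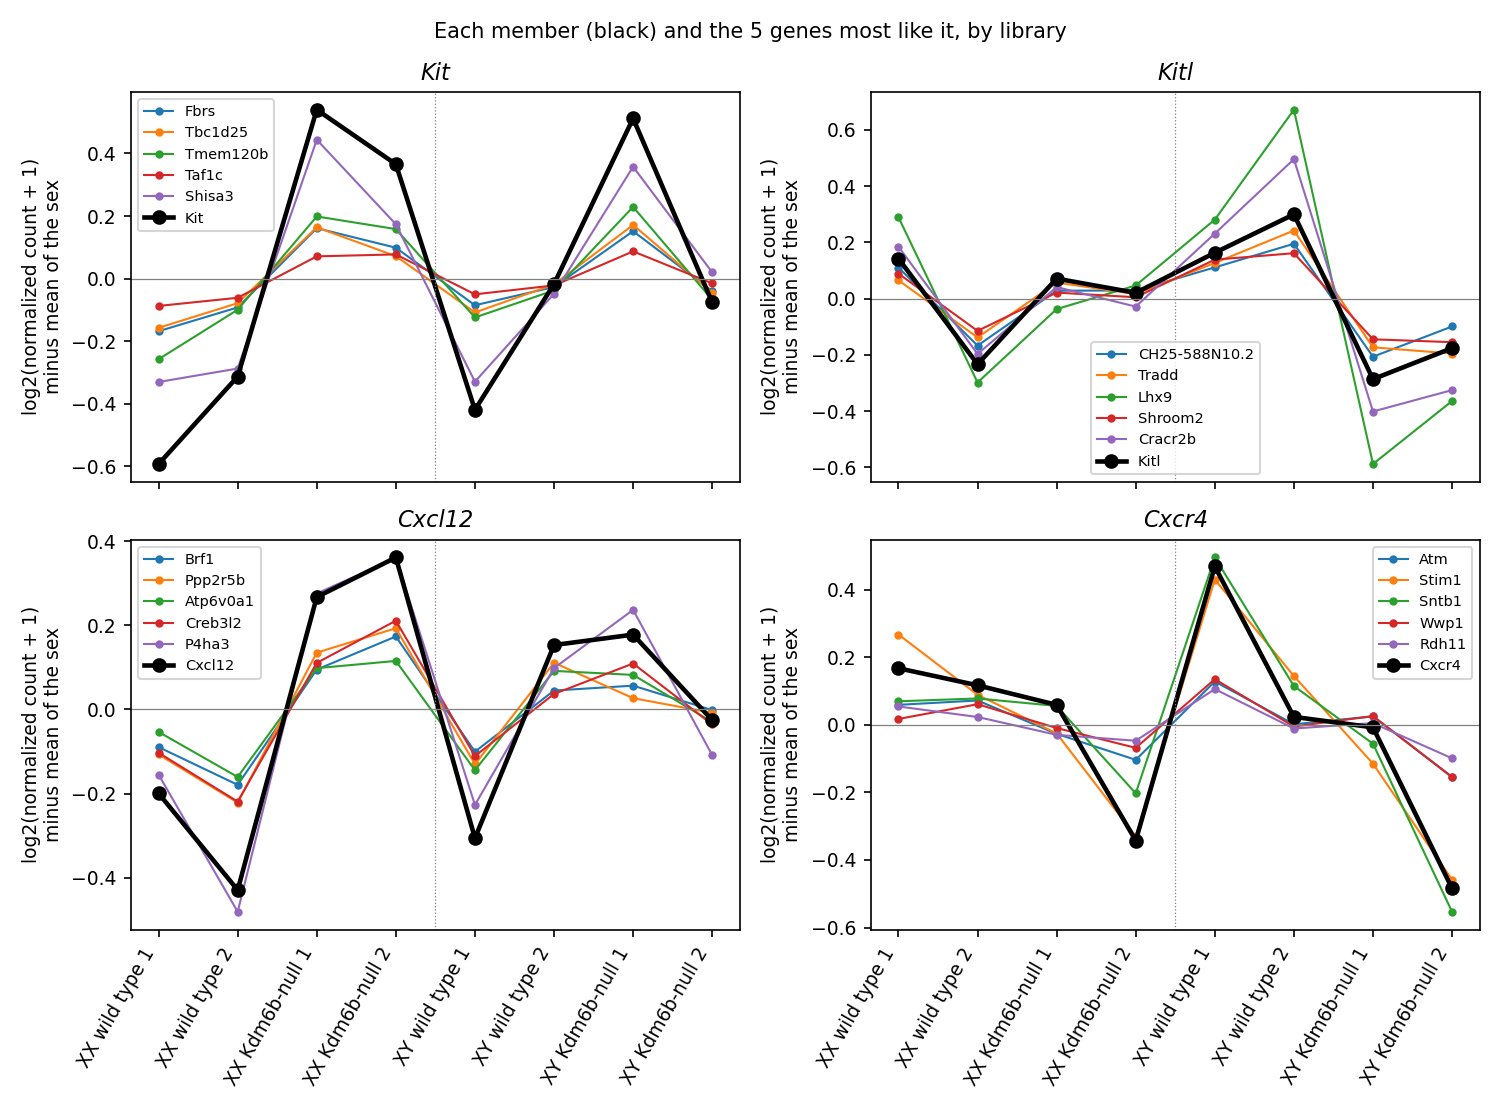
Each member (black) and the 5 genes with the highest r to it (colours): log2(normalized count + 1) minus the mean of the sex on the vertical axis, the 8 libraries on the horizontal axis, XX left and XY right of the dotted line. The highest r in the 4 panels is 0.990 for Kit, 0.995 for Kitl, 0.988 for Cxcl12 and 0.964 for Cxcr4.

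Downstream of the receptors, 172 genes of 7 pathway lists were matched. Limma called none of them in either sex, where it called 0% of all genes. KIT signalling genes were near balance in XY, with 18 of 40 higher (median log2 fold change -0.01), and 36 of 40 were higher in XX (median 0.24), against 50.1% of all genes higher in XX with a median of 0.00. An unadjusted p under 0.05 was reached by 15 of the 40 as higher in XX, where 9.34% of all genes were, and by 1 in XY, where 2.11% were. The endothelial markers were higher in the same XX libraries, the erythroid markers were lower (median -0.58), and the mitochondrial share of counts was 3.12% and 2.545% in XX wild type against 1.991% and 2.024% in XX null. Their part in the list was not tested. Without XX wild type replicate 1, 32 of 40 were higher (median 0.20), and without replicate 2 36 of 40 (median 0.22). Below, the smallest p is taken among members with a mean of at least 50 normalized counts. In XX the smallest p-values belonged to Plcg2, a phospholipase C (0.65), and Cblb, a ubiquitin ligase that ends receptor signalling (0.56). Cblb and Plcg1 rose in the authors' deposited table for XX (DESeq2 adjusted p of 0.036 and 0.049). In XY the smallest p belonged to Pik3r1, the regulatory subunit of PI3 kinase (0.23).

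CXCL12 signalling genes were higher in 14 of 34 cases in XY (median -0.02) and in 26 of 34 in XX (median 0.21). Without XX wild type replicate 1, 27 of 34 were higher in XX (median 0.12), and without replicate 2 24 of 34 (median 0.33). An unadjusted p under 0.05 was reached in XX by 6 as higher and 2 as lower, against 9.34% and 4.65% of all genes, and in XY by 2 as lower, against 2.85%. Bcar1, a focal adhesion scaffold (0.78), and Prex1, a Rac exchange factor (0.59), had the smallest p in XX, and both rose in the authors' deposited table (DESeq2 adjusted p of 3.3e-04 and 0.020). Vav3, another exchange factor (-0.87), and Ptk2b, a focal adhesion kinase relative (-0.75), had the smallest p in XY. Among genes that bind or break down CXCL12, 4 of 11 were higher in XY (median -0.01) and 5 of 11 in XX (median -0.04). Dpp4, the peptidase that inactivates CXCL12, measured 746.1 and 342.9 normalized counts across wild type XX pools, against 199.3 and 265.7 across null XX pools (log2 fold change -1.13), and fell in the authors' deposited table for XX (DESeq2 adjusted p of 0.037). Dpp4 had -0.31 in XY, where Sdc4, a heparan sulphate proteoglycan, had -0.25. Hspg2, the basement membrane proteoglycan perlecan, had 0.75 in XX and rose in the authors' deposited table there (DESeq2 adjusted p of 2.3e-05).

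Genes that shed KIT ligand or limit shedding were lower in 6 of 8 cases in XY (median -0.10) and in 5 of 9 in XX (median -0.00). The protease inhibitors Timp3 (-0.32) and Timp1 (-0.25) had the smallest p in XY among members with a mean of at least 50, and the proteases Adam19 (0.51) and Mmp2 (0.33) in XX. Members below that mean had smaller p than Timp1 and Mmp2: Mmp9 in XY (19.78 and 33.89 against 9.754 and 2.059 normalized counts, log2 fold change -2.23) and Adam33 in XX (62.09 and 10.12 against 4.982 and 3.031, log2 fold change -2.43), named after their values were seen. Adam19 rose in the authors' deposited table for XX (DESeq2 adjusted p of 0.028). Germ cell migration and adhesion genes were higher in 16 of 29 cases in XY (median 0.02) and 19 of 29 in XX (median 0.09). Ifitm1, a membrane protein of migrating germ cells, measured 906.2 and 1105 normalized counts across wild type XY pools, against 513.1 and 593.9 across null XY pools, and 1140 and 585.7 against 479.3 and 282.9 in XX. Both null groups lay below their wild type groups, with log2 fold changes of -0.86 and -1.15, and Ifitm1 fell in the authors' deposited tables for both sexes (DESeq2 adjusted p of 6.7e-04 in XY and 0.034 in XX). The matrix gene Fn1 had 0.89 in XX and rose in the authors' deposited table (DESeq2 adjusted p of 1.2e-11), Cdh2, a cell adhesion cadherin, had 0.43 in XX, and Itga6, a laminin receptor subunit, had -0.32 in XY.

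Among other chemokines and their receptors, 8 of 16 were higher in XY (median -0.01) and 5 of 15 in XX (median -0.33). Cxcl13, a chemokine with another receptor, measured 384.2 and 199.3 normalized counts across wild type XX pools, against 39.86 and 39.4 across null XX pools, a log2 fold change of -2.77, and fell in the authors' deposited table for XX (DESeq2 adjusted p of 5.9e-09). Cx3cl1 had 0.65 in XX, and in XY the macrophage receptor Cx3cr1 had 0.49 and Ccl27a, which has near-identical copies that can share its reads, had 0.97. Receptor kinases related to KIT and their ligands were higher in 3 of 9 cases in each sex (medians -0.01 in XY and -0.04 in XX). Csf1r, the macrophage member of that family, had 0.73 in XY and rose in the authors' deposited table there (DESeq2 adjusted p of 0.0011). Pdgfrb had -0.31 in XY and 0.21 in XX, and its ligand gene Pdgfb had 0.18 in XX.

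**Figure D5:**
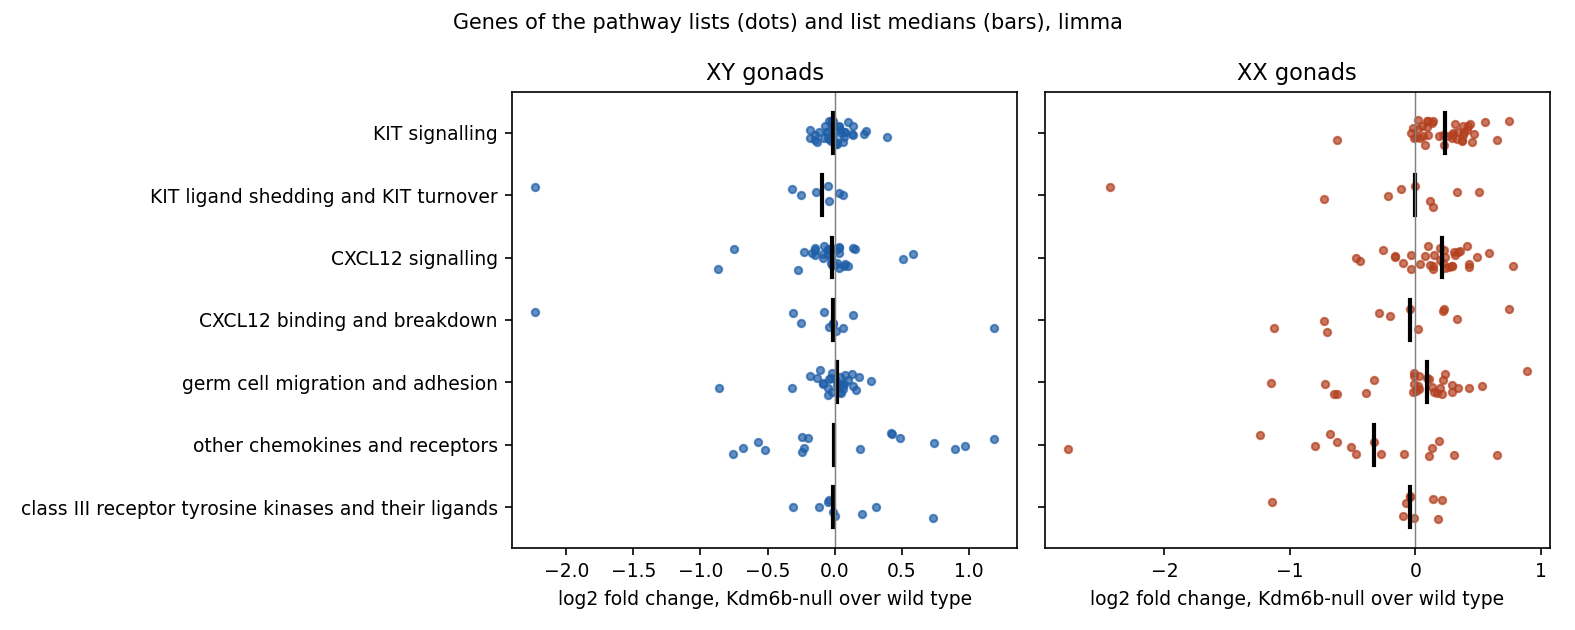
Limma log2 fold changes of null over wild type (horizontal axis) for the genes of the 7 pathway lists in XY (left) and XX (right); dots are genes, placed with random vertical jitter, and black bars are list medians. The medians of KIT signalling and CXCL12 signalling are -0.01 and -0.02 in XY and 0.24 and 0.21 in XX.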

How the data were processed

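Polyadenylated RNA of whole gonads was sequenced as 100-base paired reads, per the labels' protocols. The authors used the GRCm38 (mm10) build, cutadapt 4.9, featureCounts 2.0.8, STAR 2.7.11 and DESeq2 2.11.40.8, per the submitters' processing notes. The annotation release and the strand and multimapping settings were not given there. As deposited, each signal value is the normalized count of 1 gene in 1 library, and the authors supplied XX and XY as separate tables. The deposited tables of the authors' comparisons hold a log2 fold change, its standard error, a Wald score (not used), and p-values before and after adjustment. The XX table has no header and was read in the column order of the XY table. In every library 100% of nonzero values were whole multiples of 1 step, read as 1 count within 1e-06, and totals and counting errors, which leave out amplification error, rest on that. A separate screen did not accept 5 of the libraries as recovered reads, so no count model was fitted.

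Limma 3.58.1 in R 4.3.3 was run on log2(normalized count + 1) with a variance trend, for genes with a mean of at least 10, with Benjamini-Hochberg adjustment over all genes tested at 0.05. Each sex was fitted alone, with 2 residual degrees of freedom, and the difference and the average used all 8 libraries, with 4. The fit was tested on simulated data in which all libraries had the same spread, unlike the XX wild type pair here. Fold changes on this scale understate those of low genes. Exon lengths are unions of GENCODE M21 exons, and promoters are from RefSeq (GRCm38.p6). Kdm6b, the 4 genes and Ackr3 were named whatever their result. Each pathway list named its adjusted calls or, with none, the 2 members of smallest p per sex with a mean of at least 50, and each gene its 5 closest by r, leaving out predicted genes. One gene that this rule names is not reported here. Genes called in the authors' tables were added after their values were seen. The members and lists were chosen with earlier results of these data known.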

Additional observations from a re-analysis of the deposited data

How the results depend on the processing

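With 2 libraries per group the spread is poorly estimated. Of the 4 genes in 4 comparisons, none was called by limma with all libraries under any alternative pseudocount, filter, scaling, variance trend or block. Signs turned for Cxcl12 in XY (-0.08 without XY wild type replicate 1), Kitl in XX (-0.10 without XX wild type replicate 2) and Cxcr4 in the difference (0.03 with XY Kdm6b-null replicate 2 left out, 0.01 with XY wild type replicate 1 left out). Left out in turn, libraries gave ranges of 0.14 to 0.73 for Kit, -0.53 to -0.39 for Kitl, -0.08 to 0.38 for Cxcl12 and -0.73 to -0.25 for Cxcr4 in XY. In XX they gave 0.77 to 1.05, -0.10 to 0.28, 0.51 to 0.74 and -0.48 to -0.08 in the same order. For the difference they gave -0.76 to -0.17, -0.74 to -0.37, -0.70 to -0.25 and -0.45 to 0.03, and for the average 0.52 to 0.82, -0.28 to -0.09, 0.28 to 0.50 and -0.51 to -0.27.

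Counts of genes called by limma were 0 to 2 in XY, 0 to 3550 in XX, 0 to 43 in the difference and 0 to 1306 in the average when 1 library was left out. They were 1 in XY with no variance trend, 10 in XX with all 8 libraries in 1 fit, and in the average 1 with no filter on low values, 1 at a mean of at least 50, 2 with no variance trend, 2 with the same upper quartile per library and 4 with the same total, against 6. The cause was not tested. With the replicate number as a block within each sex, 23 genes were called in XY, 2 in XX, 0 in the difference and 0 in the average, and no call of the 4 genes changed. The labels do not say that the numbers pair libraries, and same-numbered deviations had correlations of 0.245 in XY and -0.062 in XX across genes.

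For the ratio of Kit to germ cell markers in XY, the change was -0.34 with Pou5f1 as reference and -0.39 with Ddx4 and Dppa3. With Pou5f1 the XX change was 0.61 for Kit, against 1.33, and -0.58 for Cxcr4, against 0.14. Left out in turn, an alternative added after seeing the data, libraries gave ratio changes of Kit to germ cell markers of -0.20 to 0.24 in XY and 0.23 to 2.43 in XX, and of Cxcr4 to germ cell markers of -1.55 to -0.27 and -0.80 to 1.08. For Kitl to Kit they gave -1.25 to -0.55 and -1.14 to -0.49, and for Cxcl12 to Cxcr4 0.19 to 1.10 and 0.66 to 1.16.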
